A study of Bos taurus with 9 samples.

Results

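The miR-424, miR-450 and miR-542 loci form a cluster of miRNA hairpins on chromosome X, and their abundance was followed in extracellular vesicles (EVs) of bovine follicular fluid as antral follicles grew. The members were taken from the table of known and homologous miRNA by name, as every locus named bta-miR-424, bta-miR-450, bta-miR-503 or bta-miR-542 with any letter or arm suffix. This gave 6 loci of the 249 in that table and of the 101889 deposited loci, and 0 loci of the table carry the name miR-503. The members are miR-424-3p, miR-424-5p, a pair of miR-450a loci, miR-450b and miR-542-5p. The opposite arm of the miR-542 hairpin is in the same table under the dog name cfa-miR-542, so it is not a member and is given only beside its partner.

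EVs were isolated from the fluid of cow ovaries collected at an abattoir, and small RNA of 9 pools was sequenced. Follicle diameter set the groups, with 3 pools each of small follicles at 3–5 mm, medium follicles at 6–9 mm and large follicles at >9 mm, and each sample is the RNA of 1 pool that mixes many follicles, healthy and atretic. The samples are named here by size and by the number in their label, which is small 1, 2 and 4, medium 5, 6 and 8, and large 10, 11 and 12. Fluid was gathered in 3 collections, each of which gave all 3 sizes, and the labels do not say which samples shared a collection. The vesicles come from a mixture of cells, so more vesicles of a cell type and more of a miRNA in each vesicle cannot be told apart.

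A miRNA gene is transcribed as a longer RNA that folds into a hairpin, and cutting of the hairpin releases a duplex with a 5p and a 3p arm. As a rule 1 arm is loaded into an Argonaute protein and guides it to messenger RNAs, chiefly through the seed near its 5′ end, while the other arm is mostly degraded. The X-linked cluster of miR-424 and miR-503 is conserved among mammals and is known for its part in cell cycle control and differentiation. miR-424-5p and miR-503 belong to the miR-15/16 group of seeds, which repress cyclins and other genes of the G1 phase, and the miR-450 and miR-542 hairpins lie beside them.

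All members lie on the minus strand of chromosome X (UMD3.1), within 6560 bases from 18178955 to 18185514. miR-450b (18178955 to 18178977) is followed by miR-450a-1 (18179125 to 18179146) after 147 bases and by miR-450a-2 (18179270 to 18179291) after another 123 bases. The miR-542 hairpin holds cfa-miR-542 (18180151 to 18180173) on its 3p side and miR-542-5p (18180187 to 18180209) on its 5p side. The miR-424 hairpin lies 5247 bases further on, with miR-424-3p at 18185457 to 18185477 and miR-424-5p at 18185493 to 18185514. The loci are 21 to 23 bases long. The miR-450a loci were numbered by the order of the RefSeq genes MIR450B, MIR450A-1, MIR450A-2, MIR542, MIR503 and MIR424 on the ARS-UCD2.0 assembly.

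Values are normalized counts, which are counts scaled by the TMM method of edgeR and expressed as CPM, with the loci of that table as the total. Differences were tested in 1 quasi-likelihood fit of the 3 sizes over all 249 loci, with the false discovery rate (FDR) taken over those loci and a threshold of 0.05. Differences are given as log2 fold changes (log2FC) with their standard error (SE). This scale sets a miRNA against the other miRNA of its library. The 249 loci took 14.1 to 26.9% of all deposited counts in small follicle EVs, 3.75 to 11.2% in the medium samples and 1.43 to 5.65% in the large ones. This was 1257402 to 3394554 reads per sample in small, 437626 to 1192597 in medium and 146617 to 660594 in large follicles, and the lowest count of any member was 12.

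The most counted member by far was miR-450b. Its normalized count was 2735, 2417 and 3687 in small 1, 2 and 4, then 5302, 3932 and 5115 in medium 5, 6 and 8, and 4618, 6252 and 5623 in large 10, 11 and 12. All medium and large samples were above all small samples, while medium and large overlapped. The log2FC was 0.90 in large against small follicles (SE 0.31, FDR = 0.0358), 0.70 in medium against small (SE 0.31, FDR = 0.262) and 0.20 in large against medium (SE 0.31, FDR = 0.699). The call in large against small follicles was lost without small 1 (FDR = 0.109), small 2 (FDR = 0.0963), medium 5 (FDR = 0.0575) or large 11 (FDR = 0.112).

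The neighbouring miR-450a hairpins rose more steeply. The normalized count of miR-450a-1 was 74.4, 63.9 and 64.8 in the small, 167, 130 and 228 in the medium and 502, 490 and 340 in the large samples, in the order of the sample numbers. For miR-450a-2 the values were 79.3, 63.9 and 69.5, then 161, 137 and 238, and then 446, 455 and 373. At both loci the 3 sizes stood in order without overlap. In large against small follicles the log2FC was 2.70 at miR-450a-1 (SE 0.37) and 2.58 at miR-450a-2 (SE 0.36), each with a FDR of 0.000598. That is a rise of 6.52-fold and 5.96-fold.

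The miR-450a loci are likely to share reads, since both carry the mature name bta-miR-450a and the handling of reads that map to several places is not stated in the sources used here. Their total counts were 1264 and 1310, and their ratio ranged from 0.910 to 1.13 over the 9 samples. A chi-square test of the 9 pairs of counts, which covers counting error only, gave p = 0.972, so they differed by less than the sampling noise. They are counted below as 2 of the 6 members, as the rule gives them, and the counts of calls are also given with both summed to 1 locus.

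miR-542-5p was the least counted member, with 12 to 183 raw counts per sample. Its normalized count was 56.3, 43.4 and 27.3 in the small, 95.3, 52.4 and 97.7 in the medium and 117, 85.3 and 92.0 in the large samples. All large samples were above all small samples, and the medium samples overlapped with both. The log2FC in large against small follicles was 1.21 (SE 0.45, FDR = 0.049), and with any 1 of the 9 samples left out the FDR was between 0.0563 and 0.114, so this call did not hold in any of those fits. In medium against small follicles the log2FC was 0.96 (SE 0.44, FDR = 0.278) and in large against medium 0.25 (SE 0.45, FDR = 0.762).

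The arms of miR-424 differed in their course. The normalized count of miR-424-3p was 137, 75.8 and 146 in the small, 336, 194 and 421 in the medium and 820, 789 and 906 in the large samples. The 3 sizes stood in order without overlap, and the large samples had the smallest relative spread (coefficient of variation 7.23%, against 32.0% in small and 36.3% in medium). The rise was 6.98-fold in large against small follicles (log2FC 2.80, SE 0.40, FDR = 0.000598).

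For miR-424-5p the normalized count was 245, 398 and 120 in the small, 266, 421 and 146 in the medium and 368, 199 and 115 in the large samples. Each size spanned nearly the same range, and the spread within a size was wide (coefficient of variation 49.8 to 56.7%). The log2FC was -0.18 in large against small (SE 0.56, FDR = 0.831), 0.12 in medium against small (SE 0.55, FDR = 0.922) and -0.30 in large against medium follicles (SE 0.56, FDR = 0.77). Its standard errors were the highest of the 6 members, so a change as large as that of miR-450b was not detectable at this locus.

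**Figure D1:**
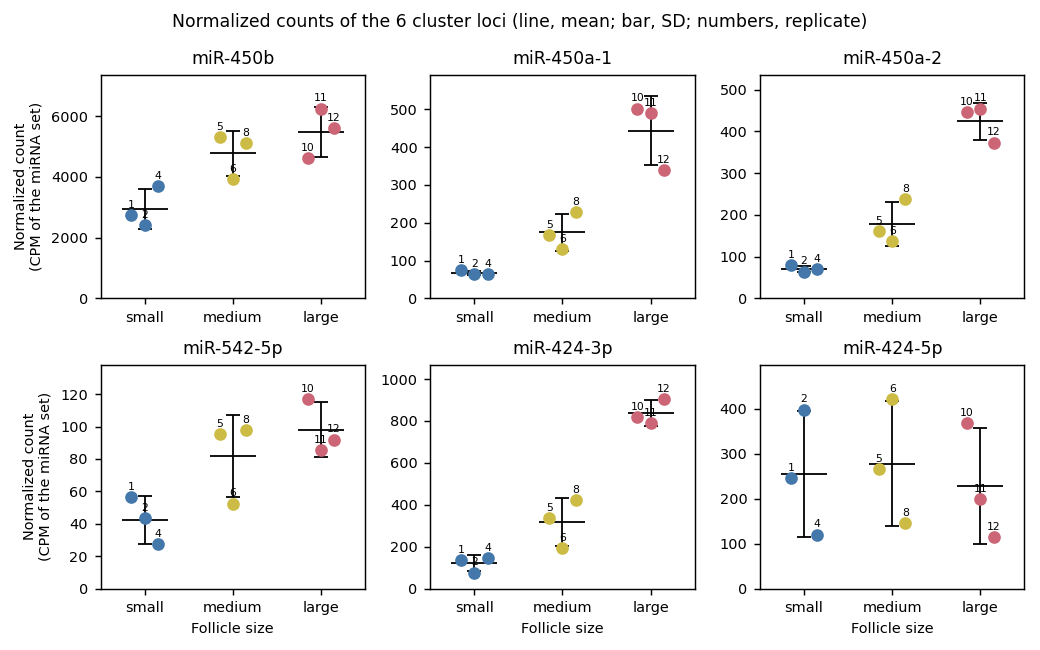
Normalized counts (y axis, CPM of the miRNA set after TMM) of the 6 cluster loci by follicle size (x axis), with each point 1 sample labelled by its number, the line the mean and the bar the SD (n = 3). miR-450a-1, miR-450a-2 and miR-424-3p step up from size to size without overlap, from 63.9–74.4 to 340–502 at miR-450a-1, while miR-424-5p spans 120–398 in small and 115–368 in large follicle EVs.

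Counted over the cluster, 5 of the 6 members rose in large against small follicle EVs and 0 fell, where 17.7% of the 249 loci were called higher and 24.5% lower. The median log2FC was 1.89 over the members and -0.18 over all 249 loci. The normalized counts of the same 5 members lay higher in all large than in all small samples, as did those of 23.7% of the 249 loci. The calls at miR-450b and miR-542-5p were the weakest of the 5, and the count was 3 or 4 when any 1 sample was left out, being 3 without small 1, small 2, medium 5 or large 11. With only small and large samples in the fit it was 3 as well. With the miR-450a loci summed, 4 of 5 members were called, and the median over members was 1.22, the value of miR-542-5p. The share of the 249 loci called in these other fits is not given here.

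In large against medium follicles 3 of the 6 members rose and 0 fell, with 5.62% of the 249 loci called higher and 4.82% lower. These were miR-424-3p (log2FC 1.40, SE 0.39), miR-450a-1 (1.33, SE 0.35) and miR-450a-2 (1.24, SE 0.35), with a FDR of 0.0444 to 0.0446. The median was 0.74 over the members and 0.00029 over all loci. With the miR-450a loci summed, the median over members was 0.26, the value of miR-542-5p, and 2 of 5 members were called. These calls sat at the threshold. With only large and medium samples in the fit the FDR of the 3 loci was 0.0686 to 0.0745, and with the total count of the set as the scaling that of miR-424-3p was 0.0503. None of the 3 passed without small 1, small 4, medium 5, medium 6, large 10 or large 11, where their FDR was between 0.0503 and 0.165. Without small 2 there was 1 call, at miR-424-3p (FDR = 0.0497), and without large 12 there were 2, at the miR-450a loci (FDR = 0.03 and 0.0479).

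In medium against small follicles 0 members passed with the quasi-likelihood test, and 0% of the 249 loci did. All 6 members had a positive log2FC, with a median of 1.15 where the median of all loci was -0.17. With the miR-450a loci summed, the median over members was 0.96, the value of miR-542-5p. An unadjusted p under 0.05 was found for 5 of the members, all with higher counts in medium follicles, and for 8.84% of the 249 loci in that direction. For miR-424-3p and the miR-450a loci the log2FC values were 1.40, 1.37 and 1.34, and the FDR was 0.0676 to 0.068. These 3 loci passed with edgeR's exact test and with DESeq2, and the miR-450a loci passed in the quasi-likelihood fit without large 12 (FDR = 0.0362 and 0.0396). The share of the 249 loci that passed in these settings is not given here. The 0% above belongs to the quasi-likelihood fit of all samples. Normalized counts in order over the 3 sizes without overlap were found for 3 members, 2 of them the miR-450a loci that are likely to share reads, and for 6.83% of the 249 loci.

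**Figure D2:**
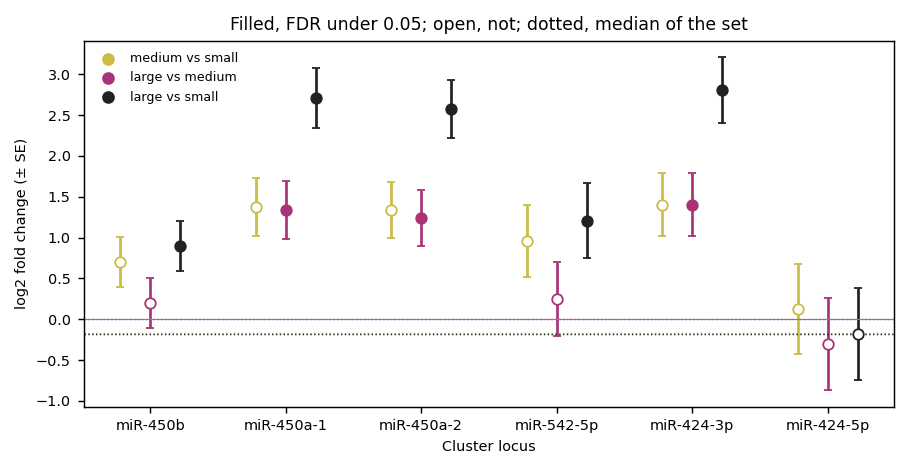
Log2 fold change (y axis, bars 1 SE of the quasi-likelihood fit) of each cluster locus (x axis) in the 3 comparisons of follicle sizes. Filled points had an FDR under 0.05, and the dotted lines mark the median of the 249 loci. In large against small follicles miR-424-3p and the miR-450a loci reach 2.58 to 2.80, miR-450b and miR-542-5p lie at 0.90 and 1.21, and miR-424-5p lies at -0.18.

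These changes are relative to the other miRNA of a library. When samples were scaled by their total over all deposited loci, by TMM over 704 miRNA loci that include 455 predicted ones, or by TMM over all deposited loci, the median log2FC of the 249 loci in large against small follicles became -3.06, -3.60 and -4.71. Under these scalings 5 members turned to a negative log2FC, for example -0.20, -0.64 and -1.88 at miR-424-3p, which did not pass, and -2.12, -2.59 and -3.80 at miR-450b, which passed as lower. The log2FC of miR-424-5p, -0.18 on the main scale, went to -3.20, -3.75 and -4.84, and this locus passed as lower too. A scaling moves all loci of a library alike, so the distance of each member from the median of the 249 loci could move only a little over 6 scalings. It was 2.83 to 2.98 at miR-424-3p, 2.63 to 2.89 at miR-450a-1, 1.35 to 1.41 at miR-542-5p, 0.91 to 1.08 at miR-450b and -0.15 to 0.08 at miR-424-5p. Set against all deposited reads, then, 0 members were called higher in large than in small follicle EVs.

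**Figure D3:**
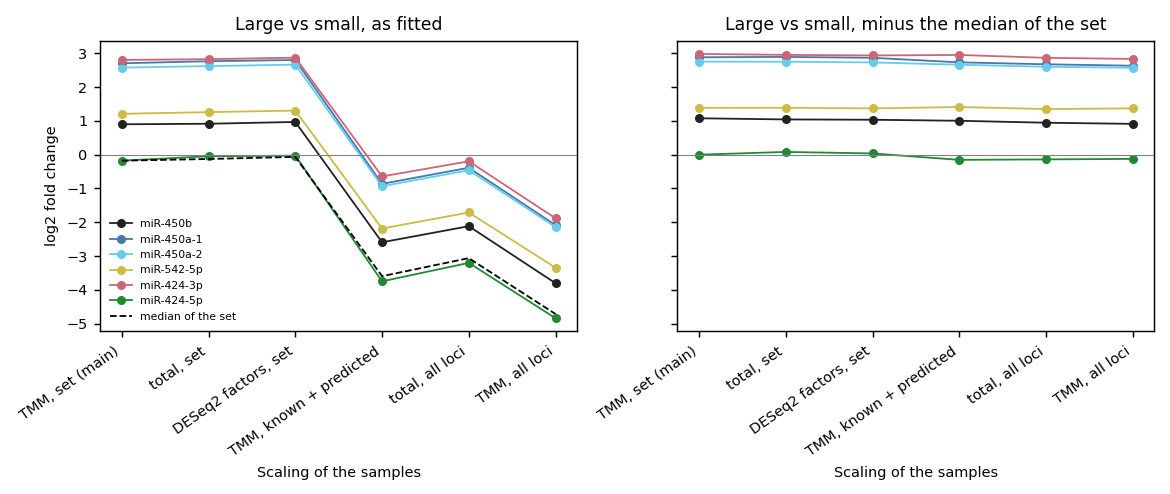
Log2 fold change in large against small follicles (y axis) of the 6 members under 6 scalings of the samples (x axis), as fitted on the left and after subtracting the median of the 249 loci on the right. Scaling to all deposited loci takes the median of the set to -3.06 and -4.71. A scaling moves all loci of a library alike, so miR-424-3p stays 2.83 to 2.98 above that median.

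Ratios of counts within a library do not depend on the scaling between libraries, and they were used to compare members with each other. The ratio of miR-424-3p to miR-424-5p counts was 0.560, 0.191 and 1.22 in the small, 1.26, 0.459 and 2.89 in the medium and 2.23, 3.96 and 7.88 in the large samples. All large samples were above all small samples, and the medium samples overlapped with both. On average the ratio was 8.11-fold higher in large than in small follicle EVs (difference of log2 means 3.02). The trend with the size rank had p = 0.0167 (exact permutation test over 1680 arrangements, two-sided, 0.025 after adjustment over the 3 ratios tested, smallest possible p 0.00119). Without small 2 or without large 12 the exact permutation p was 0.05, and the difference of log2 means was 2.31 and 2.55.

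The arms of miR-542 gave no such trend. The ratio of miR-542-5p to cfa-miR-542 counts was 0.250, 0.190 and 0.247 in the small, 0.473, 0.155 and 0.720 in the medium and 0.266, 0.308 and 0.584 in the large samples. The large samples were all above the small ones, but the medium samples spanned the whole range. The exact permutation p for the trend was 0.294 (two-sided, adjusted p = 0.294), and the difference of log2 means between large and small follicles was 0.68. The normalized count of cfa-miR-542 was 188 ± 67.4, 225 ± 103 and 292 ± 142 from small to large follicle EVs (SD, n = 3), with a log2FC of 0.62 in large against small (SE 0.49, FDR = 0.325).

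The third ratio set the miR-450a loci, summed, against miR-450b. It was 0.0562, 0.0529 and 0.0364 in the small, 0.0619, 0.0678 and 0.0911 in the medium and 0.205, 0.151 and 0.127 in the large samples. Here the 3 sizes stood in order without overlap. The ratio was 3.31-fold higher in large than in small follicle EVs (difference of log2 means 1.73). The trend had p = 0.00119 in the exact permutation test (two-sided, adjusted p = 0.00357), the smallest p this test can give. The test takes the samples as exchangeable, with no block for collection. With any 1 sample left out, the p was 0.00357. For each pair of sizes the exact permutation p was 0.1, which is the smallest that 3 samples against 3 allow. Within the cluster, miR-450b made up 83.6% ± 5.47, 82.2% ± 1.52 and 72.8% ± 4.81 of the members' counts from small to large follicle EVs (SD, n = 3).

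**Figure D4:**
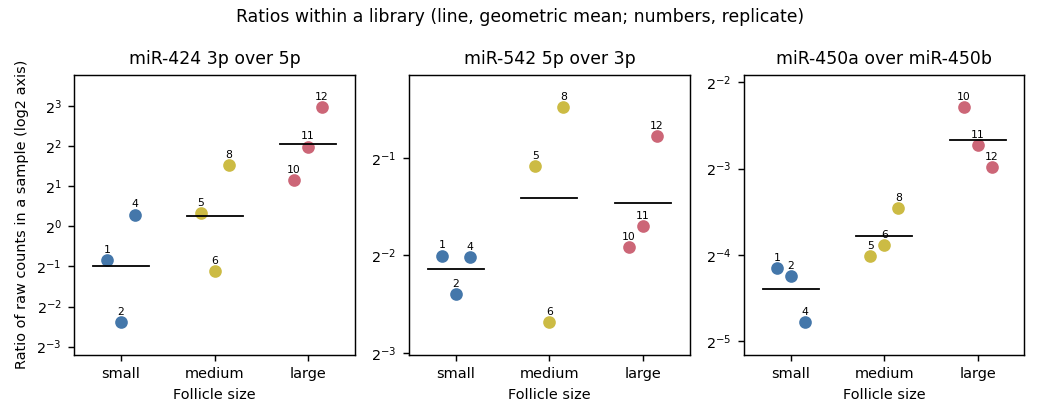
Ratios of raw counts within a sample (y axis, log2 scale) by follicle size (x axis), with each point 1 sample labelled by its number and the line the geometric mean. miR-424-3p over miR-424-5p goes from 0.191–1.22 in small to 2.23–7.88 in large follicle EVs, and miR-450a over miR-450b from 0.0364–0.0562 to 0.127–0.205 with no overlap between sizes, while miR-542-5p over cfa-miR-542 overlaps between medium and the other sizes.

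Co-variation of the cluster apart from follicle size was described by the deviation of each sample from the mean of its size, on the log2(normalized count + 1) scale. Pairs of members were not correlated by their levels, since the 3 sizes form separate groups at several members. Over the 6 members and cfa-miR-542 there are 21 pairs, and the points share the library and its TMM factor. The median Pearson r was 0.13, and it was 0.05 over all 30876 pairs of the 249 loci. Permutation within sizes takes the samples of a size as exchangeable, with no block for collection. Deviations shared by a collection would leave fewer independent samples than the test takes. The number of pairs past an adjusted p of 0.05 was 0 (exact permutation within sizes, 216 arrangements). The smallest p this allows is 0.00463, which adjusts to 0.0972 for a single pair, so a lone pair could not pass. An unadjusted exact permutation p under 0.05 was found for 4 pairs, and the share of all 30876 pairs is not given here. These were the miR-450a loci with each other, and miR-424-5p with cfa-miR-542, miR-450b and miR-424-3p. The r of miR-424-5p with miR-450b and with miR-424-3p was negative.

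The highest r was that of miR-424-5p with cfa-miR-542, which are arms of different hairpins. It was 0.96 (Spearman rho 0.95, exact permutation p = 0.00463 for both, adjusted p = 0.0972 for both), and 0.94 without the 2 samples farthest from the median of cfa-miR-542. In each size both loci were lowest in the same sample, which was small 4, medium 8 and large 12, and highest in small 2, medium 6 and large 10. Next came the miR-450a loci with each other (r = 0.94, rho = 0.92, exact permutation p = 0.00926 for both, adjusted p = 0.0972 for both, r = 0.87 without the 2 farthest samples), which are likely to share reads. An r over 0.9 was found for 1.68% of all pairs of the 249 loci.

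For the arms of miR-424 the r was negative, at -0.77 (exact permutation p = 0.0324, adjusted p = 0.194) and rho = -0.62 (exact permutation p = 0.0648, adjusted p = 0.227), and r = -0.64 without the 2 farthest samples. For miR-450b with miR-424-5p the r was -0.82 (rho = -0.78, exact permutation p = 0.037 and 0.0463, adjusted p = 0.194 and 0.227, r = -0.71 without the 2 farthest samples). miR-424-3p was lowest in small 2, medium 6 and large 11, the sample of each size with the lowest share of reads on the 249 loci (14.1, 3.75 and 1.43%). miR-424-5p and cfa-miR-542 were lowest in the sample with the highest share (26.9% in small 4, 11.2% in medium 8 and 5.65% in large 12). The part of this share in the levels was not tested, nor was that of a shared collection, which the labels do not give. When samples were scaled by their total over all deposited loci, 10 of the 21 pairs had an adjusted p under 0.05 (exact permutation), and the r of the miR-424 arms became 0.10. This scaling raised r in general, with a median of 0.83 over the 21 pairs and 0.75 over all 30876 pairs, and 92.5% of all pairs positive. The share of all 30876 pairs past the threshold is not given here.

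**Figure D5:**
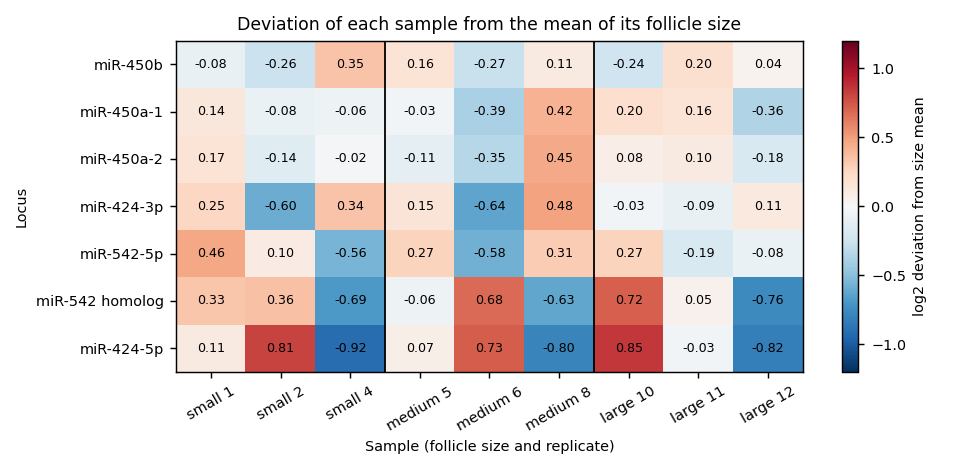
Deviation of each sample (x axis) from the mean of its follicle size for 7 loci (y axis), as log2 of the normalized count plus 1 (red above, blue below the mean). miR-424-5p and cfa-miR-542 (labelled miR-542 homolog) share their pattern, with the lowest value in small 4, medium 8 and large 12, where miR-424-3p is above its mean.

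The loci outside the cluster whose levels were most like those of miR-424-3p over the 9 samples were miR-328 (Pearson r = 0.98), miR-92b (r = 0.95) and the miR-125b locus of chromosome 1 (r = 0.94). They lie on chromosomes 18, 3 and 1, and their log2FC in large against small follicles was 3.11, 3.65 and 2.00. The set also holds a miR-125b locus on chromosome 15, which may share reads with that of chromosome 1. Most like miR-424-5p were let-7i (r = 0.93), miR-6119-5p (r = 0.91) and the let-7f locus of chromosome 8 (r = 0.89), with a log2FC of -0.25, -0.60 and 0.13. These r values run over the levels of all 9 samples, differences between sizes included, so the log2FC of these loci follow from their choice and are given without a test. The samples share library and depth across loci.

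The miR-15/16 group was also represented outside the cluster. Of the 6 loci named miR-15a, miR-15b, miR-16a, miR-16b, miR-195 and miR-497, 0 were called higher and 2 lower in large against small follicles, and 0 were called in the other comparisons. Over all 249 loci 17.7% were called higher and 24.5% lower in large against small follicles, so 2 of 6 is near the background. The falls were those of miR-15a, from 1534 ± 245 in small to 686 ± 252 in large follicle EVs (SD, n = 3; log2FC -1.16, SE 0.35, FDR = 0.0223), and of miR-16a (log2FC -0.76, SE 0.28, FDR = 0.0471). The smallest difference was at miR-16b, with -0.14 (SE 0.31, FDR = 0.744). The median log2FC of the 6 loci was -0.56.

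Of the other 30 loci of the set on this chromosome, 3 were called higher and 7 lower in large against small follicles, with a median log2FC of -0.09, where 17.7% of all 249 loci were called higher and 24.5% lower. The largest fall was at the nearest of them, miR-19b of the miR-106a and miR-363 cluster (17918013 to 17918035), which lies 260920 bases away and fell by 2.61 on the log2 scale (SE 0.46, FDR = 0.00132). The study lists bta-miR-19b on another chromosome as well, so reads may be shared and this fall cannot be placed on chromosome X. The largest rise was that of miR-222 (log2FC 2.38, SE 0.57, FDR = 0.00687), at 719 ± 698 in large follicle EVs (SD, n = 3).

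miRNA known from blood cells and from the ovary were measured beside the cluster. Of 6 blood cell miRNA looked for, miR-451, miR-486, miR-142 and miR-150 are in the set, each with 1 locus, and 3 of these 4 loci rose in large against small follicles (17.7% of all 249 loci), most of all miR-150 (log2FC 5.68, SE 0.99, FDR = 0.00132), while miR-451 had 2.04 (FDR = 0.0623). Their summed normalized count ranged from 490 to 2492 over the small samples, from 1534 to 2932 over the medium ones and from 7144 to 15499 over the large ones. Most of this sum was miR-486, with means of 949 ± 1038, 1617 ± 754 and 9245 ± 3106 from small to large (SD, n = 3). In the sum, large lay above the other sizes, as at the miR-450a loci, while small and medium overlapped, which they did not at the miR-450a loci. The part of blood cell RNA in the cluster's rise was not tested. Of 5 ovarian miRNA looked for, miR-202, miR-224 and miR-132 are in the set, with 4 loci. Their sum ranged from 17721 to 19408 over the small samples, from 15716 to 27056 over the medium ones and from 11879 to 36619 over the large ones. Most of it was chi-miR-202-3p, with means of 14736, 16821 and 15614 from small to large. Only miR-132 of these loci was called in large against small follicles (log2FC 4.10, SE 0.95, FDR = 0.00659), with a wide spread in large follicle EVs of 878 ± 1044 (SD, n = 3).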

How the data were processed

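The authors removed adapter sequence, mapped reads with bwa (version 0.7.5a) to UMD3.1, defined loci on the merged reads and deposited raw counts per locus and sample. Counts were used as deposited, with groups taken from the sample titles. miRNA names and loci were taken from the study's table of 249 known and homologous miRNA.

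In R 4.3.3 with edgeR 4.0.16 (limma 3.58.1), counts of the 249 loci were normalized by TMM, and the 3 sizes were fitted over the 9 samples with no covariate. Pairs of sizes were compared with the two-sided quasi-likelihood test and Benjamini-Hochberg adjustment over the 249 loci. The standard error is the log2 fold change divided by the root of the F statistic. Ratios and correlations were tested by exact permutation in Python 3.11.15 with scipy 1.17.1. edgeR's exact test, which the study used, DESeq2 1.42.0, other scalings, filterByExpr, fits of 2 groups, summed miR-450a loci and leaving out each sample were alternatives. The fit was tested on simulated data.

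Named loci are the members, cfa-miR-542, the 3 loci most like each arm of miR-424, and the largest rise and fall of each context list. miR-16a, miR-16b and miR-451 were named after their values were seen. The members and lists were chosen with earlier results of these data known. No mature sequence is shown, and read lengths within loci were not analysed here. The pools are separate samples of a size per the labels, and p-values measure the spread between these pools. Remarks on depth cover counting error only.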

Additional observations from a re-analysis of the deposited data

Results flagged for a closer look

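The deposited table holds 8 loci within 1000 bases of the members' range, all on the minus strand. Besides the 6 members and cfa-miR-542 there is 1 more, 24 bases long, from 18185104 to 18185127 on chromosome X (UMD3.1). It drew attention because it holds reads, with a total count of 405 over the 9 samples, although no comparison above used it. It lies between the miR-542 and miR-424 hairpins, where RefSeq lists MIR503 on the ARS-UCD2.0 assembly, and it was not matched to a miRNA by sequence. Its mean raw count per size, from small to large, was 59.7, 28.0 and 47.3, all under the 100 counts that the study's tables required in a size. On the scale of the 249 loci its normalized count was 19.4, 7.67 and 38.9 in the small, 31.2, 11.4 and 52.2 in the medium and 123, 142 and 177 in the large samples. The large samples lay above all others, while small and medium overlapped. In a quasi-likelihood fit of the 249 loci with this locus added (250 loci), chosen after its values were seen, the log2FC was 2.72 in large against small (SE 0.65, FDR = 0.00687), 2.17 in large against medium (SE 0.65, FDR = 0.0505) and 0.54 in medium against small follicles (SE 0.62, FDR = 0.674).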

How the results depend on the processing

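No paired analysis was possible because the labels give the sizes no shared sample numbers. The scaling decided the directions. In large versus small follicles the log2 fold changes of miR-450b, miR-450a-1, miR-450a-2, miR-542-5p and miR-424-3p were -2.59, -0.86, -0.93, -2.19 and -0.64 with TMM over 704 loci, -2.12, -0.39, -0.46, -1.71 and -0.20 with the total of all deposited loci, and -3.80, -2.08, -2.14, -3.34 and -1.88 with TMM over all of them. In large versus medium follicles they were -1.43, -0.55, -0.60, -1.45 and -0.32, then -1.11, -0.22, -0.26 and -1.14 (miR-424-3p 0.0076), and then -1.77, -0.99, -1.02, -1.84 and -0.72. In medium versus small follicles, with miR-424-5p last, they were -1.16, -0.31, -0.33, -0.73, -0.32 and -1.91, then -1.004, -0.17, -0.20, -0.58, -0.20 and -1.65, and then -2.03, -1.09, -1.12, -1.51, -1.16 and -2.84. Under these 3 scalings 0 members were called higher in large follicles in either comparison. In the same order, 3, 2 and 3 members were called lower than in small follicles. Each time miR-424-5p was among them, at -3.75, -3.20 and -4.84. The median log2 fold change of the whole set of known and homologous miRNA was then -3.60, -3.06 and -4.71 in large versus small follicles. The share of that set called higher or lower under these scalings is not given here, so these counts cannot be read as particular to the cluster.

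With only the 2 groups compared in the fit, 3 members were called higher in large versus small and 0 in large versus medium follicles. In medium versus small follicles 3 were called with the exact test, with DESeq2 and at an FDR under 0.1. Wherever 3 were called in these settings, they were miR-424-3p and both miR-450a loci. The miR-450a loci are likely to share reads. The cause of the differences between settings was not tested. With each sample left out in turn, the number called higher ranged from 3 to 4 in large versus small, from 0 to 3 in large versus medium and from 0 to 2 in medium versus small follicles. The share of the whole set of known and homologous miRNA called in any of these settings is not given here. These counts of members therefore cannot be read as particular to the cluster. The difference of log2 means of the miR-424 arm ratio ranged from 2.31 to 3.65, with the exact permutation p at 0.05 without small 2 or large 12. The log2 fold change of miR-424-5p changed sign without single samples. It was 0.30 without small 2 and 0.17 without large 12 in large versus small, 0.13 without medium 6 and 0.05 without large 12 in large versus medium, and -0.13 without small 4 and -0.31 without medium 6 in medium versus small follicles. Its ranges were -0.73 to 0.30, -0.85 to 0.13 and -0.31 to 0.60.

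Among the 21 pairs, r changed sign with the total of the 249 loci for miR-450b with miR-542-5p (0.12), miR-450a-1 with cfa-miR-542 (0.27) and miR-424-5p (0.19), and miR-450a-2 with cfa-miR-542 (0.089). With the total of all deposited loci it did so for miR-450b with cfa-miR-542 (0.34) and miR-542-5p (0.83), miR-450a-1 with cfa-miR-542 (0.52) and miR-424-5p (0.20), miR-450a-2 with cfa-miR-542 (0.53) and miR-424-5p (0.20), and miR-424-3p with cfa-miR-542 (0.46) and miR-424-5p (0.10). Under that scaling 10 pairs passed, where r was raised in general (median 0.75 over all 30876 pairs). The part of depth in the results at miR-542-5p, whose counts in large samples were 21, 12 and 52, was not tested.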
